A study of Homo sapiens with 6 samples.

Results

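The S100 genes encode small calcium-binding proteins, and 10 of them were followed across the 6 arrays of a comparison between the MDA-MB-231 line and its isolates S1a and S1b: S100A2, S100A3, S100A4, S100A6, S100A8, S100A9, S100A10, S100A11, S100A13 and S100P. Their members were all probe sets annotated to these symbols, which gave 12 probe sets, with 2 for S100A8 and 2 for S100A13, among 11963 genes with a named probe set. They were chosen by their signal differences between populations on these same arrays, so their differences are given as a description and carry no test. The MDA-MB-231 line comes from a human breast cancer without hormone receptors or HER2 and serves as a common model of metastasis. Both isolates derive from it and are labelled as isolated seeder cells, each 1 population, and the labels do not say whether either is a clone. Total RNA of S1a, S1b and parental cells, grown subconfluent in DMEM with serum and with no treatment or genetic change named, was labelled with biotin and hybridised to 2 Affymetrix arrays per population.

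S100 proteins carry a pair of EF-hand calcium-binding loops and mostly work as dimers. Calcium opens a hydrophobic face with which they bind other proteins, among them annexins, myosins and p53, and they have no enzyme activity of their own. Several are also secreted and act on cells through receptors such as AGER. Most of the genes sit side by side on chromosome 1, and S100A4 is known for promoting motility and metastasis in mouse models of breast cancer.

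The deposited values were MAS5 signals, scaled so that all arrays had nearly the same trimmed mean, and median signals lay between 87.6 and 106 units. Correlations of log2 signals were 0.978 or more between the arrays of a population, 0.979 to 0.980 between S1b and S1a arrays, and 0.920 to 0.932 between isolate and parental arrays. All 5 genes listed as marking MDA-MB-231 cells (VIM, CD44, CAV1, EGFR and AXL) lay above the filter of 44.0 units, and of the 3 listed as absent from them only ESR1 reached it, at a mean of 44.2 units. Log2 differences are of log2(signal + 3.942), with the limma standard error, over 7791 tested genes, and a gene is said to have risen or fallen where its adjusted p lay under 0.05. By that rule 1771 genes were higher and 1829 lower in the mean of the isolates than in parental cells, 46.2% of all tested genes, and 50.8% of the called genes were lower. Centring each array on its median moved the median of all genes by 0.19 on the log2 scale and left 28.7% of the called genes lower, and quantile normalisation left 44.9% lower. Both isolates were set against the same 2 parental arrays, so these comparisons are not independent. In RNA from whole cultures, fewer cells expressing a gene and less RNA per cell cannot be told apart.

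The promoters of 5 members are shown because the 3 genes with the larger differences and 2 of those with smaller ones differed in how many CpG dinucleotides lay just before the start. Each sequence is the 250 bases before the RefSeq start in GRCh38.p14, read 5′ to 3′ along the minus strand of the chromosome, with CpG dinucleotides in capitals. S100A4 lay at chr1:153545807-153546056, S100A2 at chr1:153565845-153566094, S100A3 at chr1:153549259-153549508, S100A6 at chr1:153535992-153536241 and S100A10 at chr1:151993860-151994109.
S100A4: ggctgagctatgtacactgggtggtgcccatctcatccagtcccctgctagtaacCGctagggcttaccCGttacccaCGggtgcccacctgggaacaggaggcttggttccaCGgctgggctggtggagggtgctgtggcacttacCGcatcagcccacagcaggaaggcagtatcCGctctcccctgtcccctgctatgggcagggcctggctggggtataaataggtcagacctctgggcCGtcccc
S100A2: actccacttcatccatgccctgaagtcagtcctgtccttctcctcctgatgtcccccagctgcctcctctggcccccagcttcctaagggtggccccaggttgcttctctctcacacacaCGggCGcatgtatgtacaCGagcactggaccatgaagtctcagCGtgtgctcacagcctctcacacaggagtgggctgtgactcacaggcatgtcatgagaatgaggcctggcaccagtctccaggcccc
S100A3: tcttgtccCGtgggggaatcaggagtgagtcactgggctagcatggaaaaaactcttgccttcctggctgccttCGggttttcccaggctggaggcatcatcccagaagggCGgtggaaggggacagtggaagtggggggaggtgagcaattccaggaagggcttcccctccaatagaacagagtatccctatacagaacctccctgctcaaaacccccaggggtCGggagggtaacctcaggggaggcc
S100A6: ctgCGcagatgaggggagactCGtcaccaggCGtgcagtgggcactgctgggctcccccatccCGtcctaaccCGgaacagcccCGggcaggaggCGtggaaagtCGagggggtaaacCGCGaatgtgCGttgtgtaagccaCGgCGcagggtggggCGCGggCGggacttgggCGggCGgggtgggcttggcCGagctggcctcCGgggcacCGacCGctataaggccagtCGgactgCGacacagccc
S100A10: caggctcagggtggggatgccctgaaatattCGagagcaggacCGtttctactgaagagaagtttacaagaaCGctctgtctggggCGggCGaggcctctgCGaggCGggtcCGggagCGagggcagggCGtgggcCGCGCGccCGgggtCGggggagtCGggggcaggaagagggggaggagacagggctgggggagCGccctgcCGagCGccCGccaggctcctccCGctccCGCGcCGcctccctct
The S100A4 window held 7 CpG, those of S100A2 and S100A3 held 4 each, and those of S100A6 and S100A10 held 24 each. Over all 34943 promoters in the table, which include every listed start and genes not tested, the median was 11, with quartiles of 3 and 23. Tested genes mostly had more: at the start with the most CpG, 5887 had more than 10 CpG and 591 had at most 10.

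S100A4, which binds non-muscle myosin and is linked to cell motility, had the largest difference among the 7 members bright enough to compare. Its signal was 2553 and 2510 units in S1a and 1289 and 1188 units in S1b, against 21248 and 20123 units in parental cells. All isolate arrays lay far below both parental arrays, and both S1b arrays lay below both S1a arrays. The means were 2532 ± 30.8 in S1a, 1238 ± 71.5 in S1b and 20686 ± 795 in parental cells (SD, n = 2 each), so that S1a kept 12.2% and S1b 5.99% of the parental signal. On the log2 scale the difference was -3.03 ± 0.083 (SE) for S1a and -4.06 ± 0.083 for S1b. Of the 7791 tested genes, 18 (0.231%) had a difference between the isolates' mean and parental cells at or below the -3.54 of S100A4. Its only probe set carries a suffix for probes that can match several transcripts.

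S100A2, a largely nuclear protein that binds p53 and is often lost in breast tumours, followed the same order of populations. It gave 505 and 481 units in S1a and 376 and 297 units in S1b, against 2595 and 2550 units in parental cells. The isolates kept 19.2% (S1a) and 13.1% (S1b) of the parental signal, with no overlap between any of the 3 populations. The log2 difference was -2.37 ± 0.12 for S1a and -2.93 ± 0.12 for S1b (SE), and 51 genes (0.655%) lay at or below its mean difference of -2.65.

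S100A3, a cysteine-rich member best known from the cuticle of the hair, was dimmer and more variable. Its signal was 221 and 210 units in S1a and 140 and 71.8 units in S1b, against 454 and 437 units in parental cells. The 3 populations again did not overlap, although the S1b arrays differed from each other almost as much as the lower S1a array differed from the higher S1b array. S1a kept 48.5% and S1b 23.7% of the parental signal, with log2 differences of -1.03 ± 0.26 and -2.11 ± 0.26 (SE), and 194 genes (2.49%) lay at or below its mean difference of -1.57. The S1a call was lost without the variance trend and without S1a replicate 2.

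**Figure D1:**
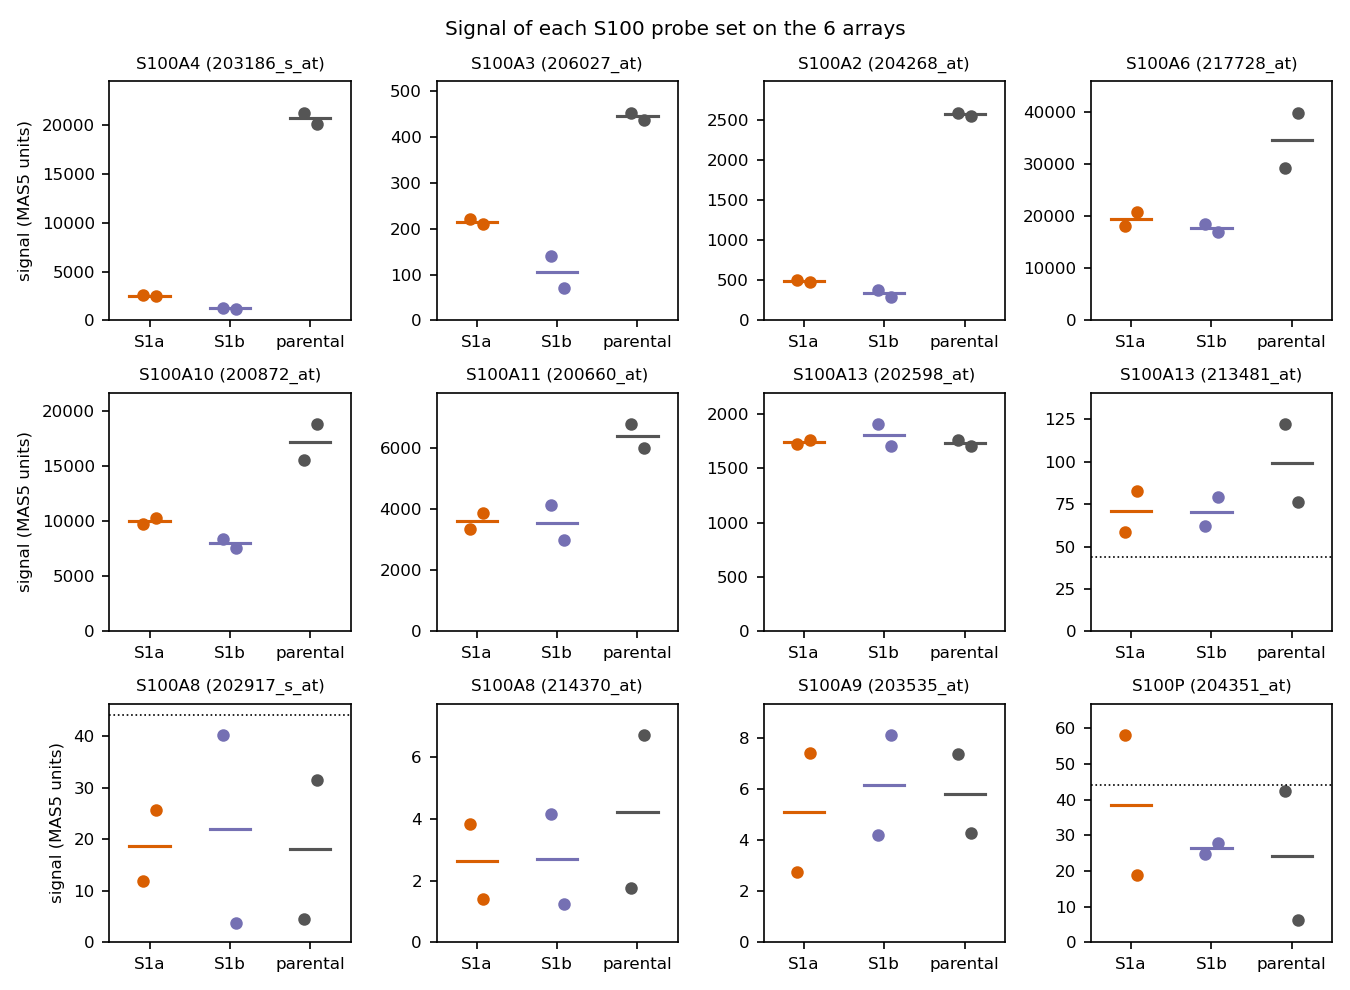
MAS5 signal (linear units, vertical axis from 0) of the 12 S100 probe sets in S1a, S1b and parental cells; points are arrays, horizontal bars are means of 2 arrays, and the dotted line is the filter of 44.0 units. S100A4, S100A3 and S100A2 show 3 separate levels with S1b lowest, the brighter S100A13 probe set overlaps in all populations, and the probe sets of S100A8, S100A9 and S100P average below the filter.

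S100A6, S100A10 and S100A11 differed by less. S100A6 (calcyclin), which binds CACYBP and is raised in proliferating cells, gave 18188 and 20776 units in S1a and 18559 and 16995 units in S1b, against 29277 and 39837 units in parental cells. Every isolate array lay below both parental arrays, while S1b and S1a overlapped. The log2 difference of the isolates' mean was -0.88 ± 0.12 (SE), and it was -0.45 after quantile normalisation, with the call kept.

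S100A10, which does not need calcium, forms a complex with ANXA2 and helps to hold plasminogen at the cell surface. It gave 9745 and 10282 units in S1a and 8409 and 7561 units in S1b, against 15562 and 18834 units in parental cells. Here the 3 populations did not overlap, and S1a kept 58.2% and S1b 46.4% of the parental signal. The log2 differences were -0.77 ± 0.11 for S1a and -1.10 ± 0.11 for S1b (SE).

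S100A11 (calgizzarin), a partner of ANXA1, gave 3362 and 3871 units in S1a and 4129 and 2979 units in S1b, against 6802 and 6018 units in parental cells. The isolates overlapped each other and lay below both parental arrays. The log2 difference was -0.83 ± 0.14 in S1a and -0.87 ± 0.14 in S1b (SE).

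S100A13, which takes part in the release of FGF1 from cells, was the tested member that did not pass the threshold. Its brighter probe set gave 1727 and 1765 units in S1a and 1911 and 1704 units in S1b, against 1757 and 1709 units in parental cells. The populations overlapped, and the difference of the isolates' mean was 0.03 ± 0.077 (SE) on the log2 scale. The second probe set was dim, at 58.9 and 82.8 units in S1a and 61.9 and 79.4 units in S1b against 122 and 76.4 units in parental cells, and its difference was -0.45 ± 0.30 (SE).

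S100A8, S100A9 and S100P could not be compared, because the mean of each of their probe sets lay below the filter. S100A8 and S100A9 form calprotectin, an abundant protein of neutrophils and monocytes that acts on AGER and TLR4. For S100A8 the brighter probe set gave 11.8 and 25.7 units in S1a and 40.3 and 3.76 units in S1b, against 4.54 and 31.6 units in parental cells, and the other stayed between 1.25 and 6.73 units on all arrays. S100A9 lay between 2.76 and 8.15 units on all arrays. S100P, first found in placenta and known to bind ezrin, gave 58.2 and 18.9 units in S1a and 24.8 and 28.0 units in S1b, against 42.3 and 6.19 units in parental cells. These values overlapped in every case, and no direction was read from them.

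Of the 7 members that passed the filter, 6 fell and 0 rose in the isolates' mean against parental cells, where 23.5% of all tested genes fell and 22.7% rose. The arrays of the same 6 did not overlap with parental arrays, a pattern that 29.7% of all tested genes showed in this direction. The same 6 also fell in S1a alone, where 19.9% of all genes fell, and in S1b alone, where 20.9% did. The median log2 difference of the 7 was -0.94, beside -0.03 over all tested genes. Since the genes were proposed from this contrast, nothing is read from these counts.

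Between the isolates, S1b lay below S1a on all arrays for S100A4, S100A2, S100A3 and S100A10, a direction without overlap that 23.9% of all tested genes showed. For these 4 the order S1b, S1a, parental held without overlap, as it did for 8.82% of all genes. S100A4 in S1b stood at 48.9% of the S1a signal, with a log2 difference of -1.03 ± 0.083. In this comparison 1.42% of all tested genes were called lower, S100A4 among them, and nothing is read from that call either, which was lost when the variance was not allowed to follow the mean signal. S100A3 had a difference of -1.08 ± 0.26, S100A2 of -0.56 ± 0.12 and S100A10 of -0.33 ± 0.11 (SE). The S100A3 value turned on the S1b arrays, at -1.54 without S1b replicate 1 and -0.61 without S1b replicate 2. The differences were -0.13 ± 0.14 for S100A6, -0.04 ± 0.14 for S100A11 and 0.05 ± 0.089 for S100A13, whose arrays overlapped between the isolates.

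**Figure D2:**
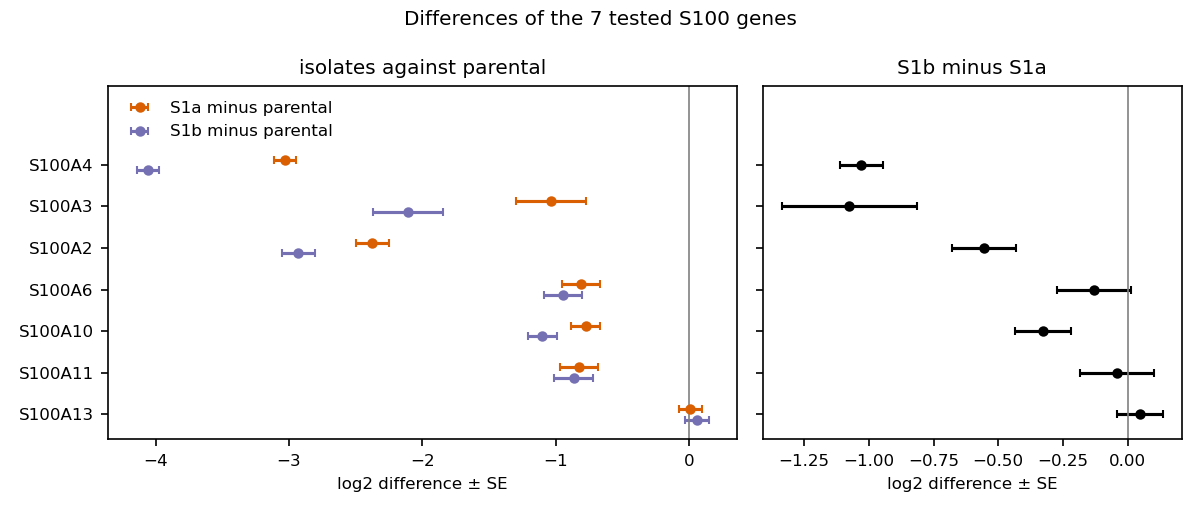
Log2 differences (horizontal axis) of the 7 tested S100 genes, with S1a and S1b each against parental cells on the left and S1b minus S1a on the right; bars are the limma standard error. S100A4 lies at -3.03 and -4.06 and S100A13 at 0.01 and 0.06, and the S1b minus S1a difference is lowest for S100A3 and S100A4.

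Outside the 10 genes, 7 of 11 other S100 genes had a named probe set and 1 of these passed the filter. That gene, S100A5, gave 80.9 and 80.1 units in S1a and 71.6 and 61.8 units in S1b, against 188 and 98.6 units in parental cells. Its log2 difference was -0.86 ± 0.29 (limma adjusted p = 0.0339), and without parental replicate 1 the difference was -0.41 with an adjusted p of 0.332. Over its 17 alternatives the adjusted p ran between 0.00482 and 0.332, and 8 of them ended the call. S100A1, S100A7, S100A12, S100A14, S100B and S100G were too dim to compare.

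Filaggrin (FLG), a large protein of the outer skin that begins with an S100 domain, was the single tested gene among 3 S100-fused genes with a probe set. It gave 25.4 and 33.8 units in S1a and 21.2 and 19.5 units in S1b, against 510 and 499 units in parental cells. Its isolate signals lay under the filter, so that it entered the test through the parental arrays alone, and it was at least 11.5-fold lower in the isolates (limma adjusted p = 2.88e-06). The genes CRNN and TCHH of the same class were too dim to compare.

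In the RefSeq order of genes on chromosome 1, S100A6, S100A5, S100A4, S100A3 and S100A2 follow one another directly among the genes with a named probe set, and each of these 5 fell in the isolates' mean, S100A5 with a call that ended under the alternatives given above. All of these but S100A5 are members chosen by their differences on these arrays, so nothing is read from this run. S100A14, next to S100A2, was too dim, and S100A13 beyond it had the log2 difference of 0.03 given above. S100A10 and S100A11 lie apart from them on the far side of the skin barrier genes. Among 54 other genes within 1 Mb of or between these genes, 32 were tested, of which 2 rose and 14 fell, where 22.7% of all tested genes rose and 23.5% fell. Their median log2 difference was -0.30 beside -0.03 over all genes. FLG is among those that fell, and some falls were small, such as -0.21 for PSMB4 and -0.27 for UBAP2L. These counts are given for the main settings only, and median centring alone moved the median of all genes by 0.19. SELENBP1, a selenium-binding protein, gave 22.8 and 17.7 units in S1a and 33.6 and 32.9 units in S1b, against 133 and 169 units in parental cells. It too passed the filter through its parental signals alone, and it was at least 3.43-fold lower in the isolates (limma adjusted p = 0.000451). TUFT1, known from tooth enamel, had a log2 difference of -1.20 ± 0.12 (adjusted p = 2.71e-05). S100P is the 1 member on chromosome 4, where 7 neighbours were tested, 1 rose and 3 fell. The neighbour that rose was WFS1, a membrane protein of the endoplasmic reticulum, with a difference of 1.09 ± 0.14 (adjusted p = 0.000193).

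**Figure D3:**
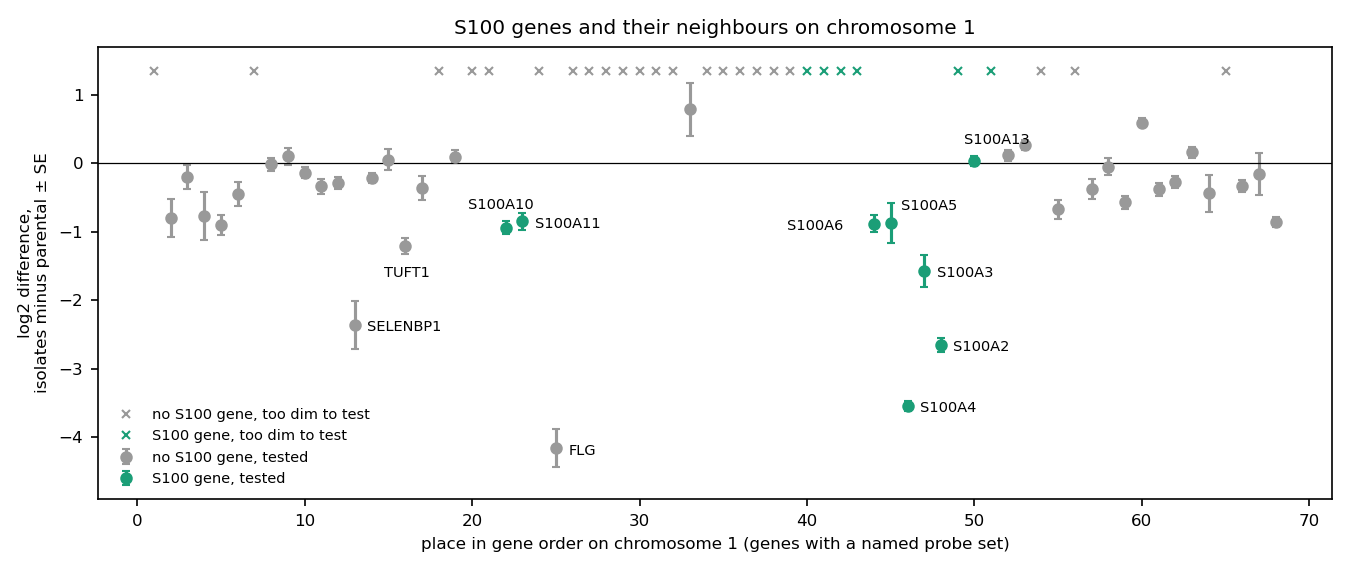
Log2 difference of the isolates' mean from parental cells (vertical axis, bars are the limma standard error) for genes on chromosome 1 by their place in the gene order (horizontal axis), with S100 genes in green, other genes in grey and crosses at the top for genes too dim to test. S100A6, S100A5, S100A4, S100A3 and S100A2 lie side by side below 0, with S100A4 at -3.54 the lowest S100 gene. S100A13 lies at 0.03. The tested S100 genes other than S100A5 were chosen by their differences on these arrays. The FLG and SELENBP1 points depend on isolate signals under the filter.

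The promoters printed above and those of the other members were searched on both strands for the TATA box (TATAAA), the GC box (GGGCGG), the CCAAT box (CCAAT), the AP-1 motif (TGANTCA), the E box (CANNTG) and the STAT motif (TTCNNNGAA). The S100A4 window held a TATA box 31 bases before the start, and windows of S100A8, S100A9, S100P and S100A13 also held this motif, which 10.8% of all promoters in the table have. The AP-1 motif, present in 6.6% of promoters, occurred 52 bases before the start in S100A2 and 225 bases before it in S100A3. The GC box, present in 42.5% of promoters, occurred 3 times in S100A6 and 1 time each in S100A10, S100A11, S100A3, S100A9 and a window of S100A13, and the CpG inside it is counted with the others. The STAT motif, present in 6.6% of promoters, lay 100 bases before the start in S100A3 and in no other of the 10 genes. Windows of S100A5, searched as well, held the STAT motif 94 bases before 1 start and the AP-1 motif 17 bases before another. The CCAAT box occurred in S100A3, S100A8 and S100A13 (32.0% of promoters), and the E box in all members except S100A3, S100A10 and S100A11 (61.8% of promoters). Some genes had more than 1 listed start, and S100A2 had 3 CpG at its second start while S100A13 had 15, 10 and 8 CpG at its starts. The S100A11 window held 15 CpG. Among the 7 tested members, the 3 with the largest differences had between 3 and 7 CpG, and the others had a start with 15 or 24. S100A5, which is not a member, had 5 and 1 CpG at its starts. Its log2 difference of -0.86 was near the -0.88 of S100A6, whose window held 24. All tested genes with a promoter in the table were then grouped by their start with the most CpG. Genes were counted where they were called and differed at least 2-fold. Of the 591 genes with at most 10 CpG, 15.2% were lower in the isolates by this measure and 5.4% higher. Of the 5887 genes with more than 10 CpG, 4.6% were lower by it and 2.8% higher. The limit of 10 CpG was chosen after these values were seen, so nothing is read from this split. A link between CpG count and the differences was not tested.

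**Figure D4:**
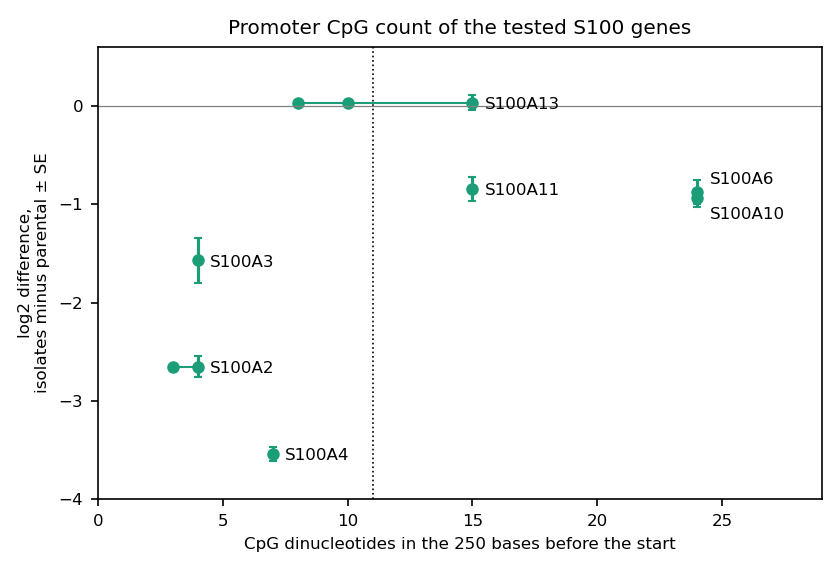
Number of CpG dinucleotides in the 250 bases before the start (horizontal axis) against the log2 difference of the isolates' mean from parental cells (vertical axis, bars are the limma standard error) for the 7 tested S100 genes; joined points are several starts of 1 gene, and the dotted line is the median of 11 over all promoters. S100A2, S100A3 and S100A4 lie left of that line, and S100A6, S100A10 and S100A11 lie right of it. The line counts every listed start, also those of genes not tested, and S100A5 is not drawn.

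The annexins, which bind membranes in the presence of calcium and pair with several S100 proteins, showed both directions. Of 8 tested annexin genes, 1 rose, 3 fell and 4 did not pass the threshold, with a median log2 difference of -0.15. Over all tested genes 22.7% rose and 23.5% fell, 46.2% together, with a median of -0.03. ANXA4 gave 673 and 706 units in S1a and 415 and 479 units in S1b, against 1288 and 1312 units in parental cells. Its log2 difference was -1.22 ± 0.093 (limma adjusted p = 6.43e-06). ANXA2, named after its values were seen because it is the partner of S100A10, gave 14611 and 15850 units in S1a and 17632 and 16738 units in S1b, against 19866 and 26351 units in parental cells. Its difference was -0.50 ± 0.11 (adjusted p = 0.00472), but the difference was -0.31 with an adjusted p of 0.0802 when arrays were centred on their medians, the only one of 17 alternatives that ended the call, and -0.16 after quantile normalisation. The adjusted p of ANXA2 over these alternatives ran between 4.76e-05 and 0.0802. Its probe sets carry suffixes for probes shared with similar sequences.

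Genes of plasminogen activation at the cell surface were also read, since S100A10 takes part in it. Of 4 tested genes, 1 rose and 2 fell, where 22.7% of all tested genes rose and 23.5% fell. Of the 2 that fell, PLAT lost its call under 5 of 17 alternatives (log2 difference -0.32, or -0.13 with median centring and -0.16 without parental replicate 1). PLAUR, the receptor of urokinase, gave 3129 and 3239 units in S1a and 3692 and 3762 units in S1b, against 1183 and 1120 units in parental cells. It rose by 1.58 ± 0.07 on the log2 scale (limma adjusted p = 2.18e-07). Its dimmest probe set overlapped between populations and gave a difference of 0.14, so the call was lost when probe sets with shared-probe suffixes were left out. PLAU, urokinase itself, had a difference of -1.08 ± 0.078 (adjusted p = 4.86e-06).

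Of 16 tested genes for intracellular S100 targets, 2 rose and 3 fell, where 22.7% of all tested genes rose and 23.5% fell. The median log2 difference of the 16 was -0.15. DLC1, a protein that S100A10 binds, gave 446 and 455 units in S1a and 411 and 444 units in S1b, against 1491 and 1915 units in parental cells. Its difference was -1.94 ± 0.11 (limma adjusted p = 1.01e-06), while its other 2 probe sets averaged under the filter over all arrays and were not tested. MYH10, the heavy chain of a non-muscle myosin, gave 872 and 903 units in S1a and 771 and 579 units in S1b, against 1925 and 2250 units in parental cells, with a difference of -1.43 ± 0.12 (adjusted p = 1.1e-05). FGF1, the growth factor released with S100A13, gave 72.6 and 95.2 units in S1a and 80.8 and 88.5 units in S1b, against 36.8 and 12.1 units in parental cells. FGF1 passed the filter through the isolates alone and was at least 1.92-fold higher in them (adjusted p = 0.00599). The call was lost without parental replicate 1 and without S1a replicate 2, and over its 17 alternatives the adjusted p ran between 0.000992 and 0.416.

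Among S100 receptors 5 were tested, of which 1 rose and 2 fell, where 22.7% of all tested genes rose and 23.5% fell. AGER and CD36 were too dim to compare. BSG, 1 of those that fell, had a log2 difference of -0.22 that lost its call under 8 of 17 alternatives, at -0.03 with median centring. Other EF-hand proteins served as a set of calcium binders outside the S100 family, and of 19 tested genes 5 rose and 9 fell, where 46.2% of all tested genes were called (22.7% rose and 23.5% fell). Their median log2 difference was -0.16. NUCB2, the precursor of nesfatin, gave 771 and 815 units in S1a and 642 and 637 units in S1b, against 1574 and 1554 units in parental cells, with a difference of -1.13 ± 0.080 (limma adjusted p = 4.08e-06). EFHD1, a mitochondrial calcium sensor, gave 113 and 91.5 units in S1a and 111 and 103 units in S1b, against 303 and 425 units in parental cells, with a difference of -1.75 ± 0.20 (adjusted p = 7.62e-05). NCS1, the neuronal calcium sensor, was dim and variable, with an isolate mean under the filter. It was at least 2.76-fold lower in the isolates (adjusted p = 0.022), and 2 of 16 alternatives ended the call, without parental replicate 1 and without the variance trend, with adjusted p between 0.00337 and 0.0956.

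Of the 9 myeloid marker genes with a probe set, read because S100A8 and S100A9 mark such cells, 8 lay below the filter. The summed signal of all 9, CD14 included, was 154 to 195 units in S1a and 164 to 168 units in S1b, against 273 to 291 units in parental cells. Median signals of whole arrays were also higher in parental cells, at 106 and 98.6 units against 87.6 to 91.7 units in the isolates. With 8 of the 9 genes below the filter, no difference in myeloid markers is read from this sum. CD14, the one whose mean over all arrays passed the filter, had an isolate mean under it and was at least 1.97-fold lower in the isolates (limma adjusted p = 0.0356), and 8 of its 17 alternatives ended that call, with adjusted p between 0.0194 and 0.207. The part of these genes in the S100 values was not tested.

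The genes whose log2 values lay nearest to those of S100A4 over the 6 arrays, each centred on its own mean, were PLAAT4 (root mean square distance 0.28), IL32 (0.34) and LRP3 (0.35). PLAAT4, a phospholipid-modifying enzyme induced by retinoids, gave 117 and 83.5 units in S1a and 73.2 and 61.8 units in S1b, against 1186 and 814 units in parental cells. IL32 and LRP3 were below the filter on every isolate array. Nearest to S100A2 were NEDD9 (0.10), KRT7 (0.12) and EFEMP1 (0.16). NEDD9, a scaffold protein of focal adhesions, gave 83.3 and 63.1 units in S1a and 55.6 and 47.5 units in S1b, against 403 and 401 units in parental cells. KRT7, an epithelial keratin, gave 374 and 395 units in S1a and 298 and 278 units in S1b, against 1906 and 2134 units in parental cells. EFEMP1, an extracellular matrix protein, gave 589 and 627 units in S1a and 359 and 322 units in S1b, against 2628 and 2483 units in parental cells. These genes were picked for the likeness of their pattern, so the order of the populations in them follows from the choice.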

How the data were processed

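Total RNA was measured on 6 Affymetrix arrays, 2 per population. The deposited intensity values are linear and were produced with MAS5, per the submitters' processing notes. From the values, every array was scaled to the same mean of 500.2 after trimming 2% at each end. No scanner file or detection call was used. Arrays have no read depth, and their number limits the precision. The titles name biological replicates but no separate cultures, and p-values therefore reflect only the spread between these arrays.

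Of 22277 probe sets, 62 controls were left out, and 19064 of the remaining 22215 had 1 gene symbol in the platform annotation, 1043 several and 2108 none. Symbols were updated through a RefSeq table (GRCh38.p14), which matched 19052, and all 10 members matched the RefSeq promoter table. Of several probe sets, the one brightest on average stood for its gene. Tests used log2(signal + 3.942), the 10th percentile of all signals, and probe sets with a mean below the 40th percentile (44.0 units) were left out. Log2 differences are on that scale and understate dim genes. Percentages of the parental or S1a signal and lower bounds of a fold are ratios of signals with nothing added. Where 1 side lay below 44.0 units, the brighter mean over 44.0 is given as a lower bound. limma 3.58.1 in R 4.3.3 fitted 3 group means to the 6 arrays, with variances that follow the mean signal, and adjusted p-values by Benjamini-Hochberg over 7791 genes at a threshold of 0.05. The procedure was tested on simulated data.

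The S100 genes and the other lists were chosen with earlier results of these data known. By a fixed rule the text names every member, other S100 genes, genes of each list past the threshold with a log2 difference of at least 1, and the 3 nearest genes of the 2 members with the largest differences. Alternatives changed the pseudocount, the filter, the scaling, the choice of probe set, the variance model, the array weights, the replicate block and the arrays used.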

Additional observations from a re-analysis of the deposited data

Results flagged for a closer look

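A difference between the isolates was found for 5 genes of the lists, tested as S1b minus S1a with limma over all genes. S100A4 had a log2 difference of -1.03, with all S1b arrays below all S1a arrays, and was proposed with these values known. ANXA4 had -0.62, PLAT (tissue plasminogen activator) -0.60, SDF4 (an EF-hand protein of the Golgi) -0.53 and BSG (basigin, a receptor of S100A9) -0.48. Of 7791 tested genes, 147 were called in that comparison, and 111 of them, 1.42% of all tested genes, were lower in S1b. The ANXA4 call was lost under 7 of its 18 alternatives, the PLAT call under 8 of 17, the BSG call under 6 of 17 and the SDF4 call under 9 of 17. The S100A4 call was lost under 1 of 17, without the variance trend. Its only probe set could not be tested with shared-probe suffixes left out.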

How the results depend on the processing

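The 6 S100 genes that fell kept their direction and call against parental cells, as a mean of the isolates, under all 18 alternatives, or 17 for S100A4, whose only probe set was left out with the shared-probe suffixes, but these are the values that chose the genes and this supports nothing. The number of members called lower in S1b than in S1a, 1 in the report, was 2 with the filter at the 60th percentile, 3 with quantile normalisation, 2 with median centring, 0 with shared-probe suffixes left out, 0 without the variance trend, 3 with array weights and between 1 and 4 with an array left out. It reached 4 without parental replicate 1 and also without parental replicate 2, and 3 without S1b replicate 1. The 147 genes called between the isolates became 63 with no filter, 79 with the mean of the probe sets of a gene, 58 with suffixes left out, 4 without the variance trend, 320 with array weights and between 22 and 354 with an array left out, where 354 and 348 came from leaving out a parental array and 22 to 46 from leaving out an isolate array. The cause of these moves was not tested. With suffixes left out only 4767 genes were tested, and 2055 were called for the mean of the isolates against parental cells, 1731 for S1a and 1889 for S1b. For S1a against parental cells, leaving out an array gave between 1901 and 2915 calls, with 1974 without S1a replicate 1 and 1901 without S1a replicate 2. The numbers were not used as pairs because the titles do not say that a number pairs samples. Same-numbered arrays also did not deviate together (correlations of -0.058, -0.0046 and -0.067). A fit with the replicate block gave 64 calls between the isolates and no change in the members' calls. It ended the BSG, PLAT and SDF4 calls between the isolates. No result reversed its direction while called. Signal over background limits S100A8, S100A9 and S100P, which no alternative with a filter could compare.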
